A study of Homo sapiens with 12 samples.

Results

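The inner kinetochore genes described here are 10 subunits of the constitutive centromere-associated network (CCAN). They are CENPL and CENPN of the CENP-LN complex, CENPH, CENPI, CENPK and CENPM of CENP-HIKM, and CENPO, CENPP, CENPQ and CENPU of CENP-OPQU. They were chosen by name, as the members of those complexes, and all 10 were found among the 14862 genes of the deposited table of normalized counts. The CCAN sits on centromeric chromatin that carries the histone variant CENP-A and stays there through the cell cycle. It is the platform on which the microtubule-binding outer kinetochore assembles in mitosis. CENP-F, the product of one gene targeted here, joins the outer kinetochore in mitosis, and FOXM1, the other, is a transcription factor that acts on genes of G2 and M phase, in part through the MuvB complex bound at cell cycle homology regions (CHR) of their promoters.

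RNA with poly(A) tails was sequenced from hTERT-RPE1, a retinal pigment epithelial cell line immortalized with telomerase and given as wild type in the labels. The transcripts of CENPF (siCENPF), of FOXM1 (siFOXM1) or of both (siCENPF+siFOXM1) were targeted by siRNA, or the cells were given a negative-control siRNA (siNeg), at 20 nM, and were harvested after 48 hours. Each of the 4 groups had 3 libraries, which the labels number 1 to 3. The sources used here give neither the number of duplexes per siRNA reagent nor whether the combined group had 20 nM per siRNA or in sum. Separate cultures for the libraries of a group are not mentioned in the labels, and each p-value then measures a spread between libraries that may be technical.

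Reads counted in genes ran from 13671250 to 35411230 per library, and siCENPF 3 and siNeg 3 were about as deep as each other and deeper than the other 10. The targeted CENPF transcript had 893, 827 and 1017 normalized counts with siCENPF and 1360, 1360 and 1284 with siCENPF+siFOXM1, against 7797, 9537 and 7993 with siNeg. The targeted FOXM1 transcript had 732, 491 and 816 with siFOXM1 and 729, 817 and 822 with siCENPF+siFOXM1, against 4186, 4438 and 4763 with siNeg. Each target was therefore low in the libraries labelled for it. Of 12 markers of retinal pigment epithelium or of epithelium at large, RPE65 and TYR were listed at 0 FPKM in all libraries. RLBP1 and TTR reached at most 0.0371 FPKM. MITF (0.721 to 1.28 FPKM), PMEL (0.52 to 0.692 FPKM), OTX2 (0.159 to 0.492 FPKM) and TERT (0.121 to 0.184 FPKM) were low. BEST1 (26.9 to 62.4 FPKM), KRT8, KRT18 and VIM were clearly present. Whether reads counted for BEST1 belong to a gene on the other strand was not tested. Of the markers of other cells, KRT5, KRT6A, CD3E and HBB were listed at 0 in all libraries, while KRT14 (0.84 to 2.69 FPKM) and TUBB3 (0.788 to 1.51 FPKM) were found in each. The 5 keratinocyte or carcinoma markers summed to 1.49 to 1.74 FPKM with siCENPF, 0.84 to 2.16 with siFOXM1, 0.961 to 1.73 with both siRNAs and 1.17 to 2.69 with siNeg. The 5 neural markers summed to 0.865 to 1.23 FPKM with siCENPF, 0.989 to 1.14 with siFOXM1, 0.838 to 1.20 with both siRNAs and 0.962 to 1.57 with siNeg, and the 5 blood and endothelial markers to at most 0.125 FPKM.

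With siRNA against CENPF, FOXM1 or both, the CCAN transcripts stayed near their level in siNeg cells. Without a term for the replicate number, no gene of the 10 passed limma against siNeg in the 3 comparisons, the fitted differences lay between -0.33 and 0.16 on the log2 scale and their 95% intervals between -0.56 and 0.43. With the replicate number as a further term of the same fit (the block), CENPU was the 1 member called in each comparison, each time below siNeg. Its differences were the same in both fits, and its call with siCENPF was lost when some single libraries were left out. CENPU encodes the CENP-OPQU subunit that binds the mitotic kinase PLK1 once phosphorylated. With siFOXM1 it stood at 79.3% of its siNeg level, with siCENPF+siFOXM1 at 81.1% and with siCENPF at 85.6%. In bulk RNA, fewer cells that carry a transcript and less of it per cell cannot be told apart. A difference below is log2(normalized count + 1) of the first-named group minus that of the second, SE is its standard error, and a gene is called where its limma p, adjusted over 14857 genes by the Benjamini-Hochberg method, is under 0.05.

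The counts of calls have to be read against all genes. With siCENPF, 0 of 10 members passed limma (1, CENPO, at an unadjusted p under 0.05) where 0.337% of all genes passed, and with the block 1 of 10 passed, below siNeg, where 1.66% of all genes passed below siNeg and 4.52% in either direction. With siFOXM1, 0 of 10 passed (1, CENPU, unadjusted) where 0.66% of all genes passed, and with the block 1 of 10, where 4.23% of all genes passed below siNeg and 8.72% in either direction. With siCENPF+siFOXM1, 0 of 10 passed (1, CENPU, unadjusted) where 0.458% of all genes passed, and with the block 1 of 10, where 3.72% of all genes passed below siNeg and 7.9% in either direction. Beside the 1 of 10 members in each comparison, limma without the block gave an unadjusted p under 0.05 for 821 of 14857 genes with siCENPF. It did so for 1155 genes with siFOXM1 and 1093 with both siRNAs. Limma with the block gave an unadjusted p under 0.05 for 5 of 10 members with siCENPF, where it did for 2511 of 14857 genes. The same count was 1 of 10 with siFOXM1 (3213 of all genes) and 3 of 10 with both siRNAs (3167 of all genes). In each comparison edgeR and DESeq2 on the recovered reads called 0 members without the block and CENPU alone with it. A single call among so few genes says nothing about the 10 as a group. Libraries that lay wholly under siNeg were seen for 3 members with siCENPF (CENPI, CENPO and CENPQ; 4.44% of all genes), for 2 with siFOXM1 (CENPO and CENPU; 6.83%) and for 2 with both siRNAs (CENPO and CENPU; 6.58%), and for 0 members did they lie wholly above it (4.87% of all genes with siCENPF, 6.56% with siFOXM1 and 6.35% with both siRNAs).

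**Figure D1:**
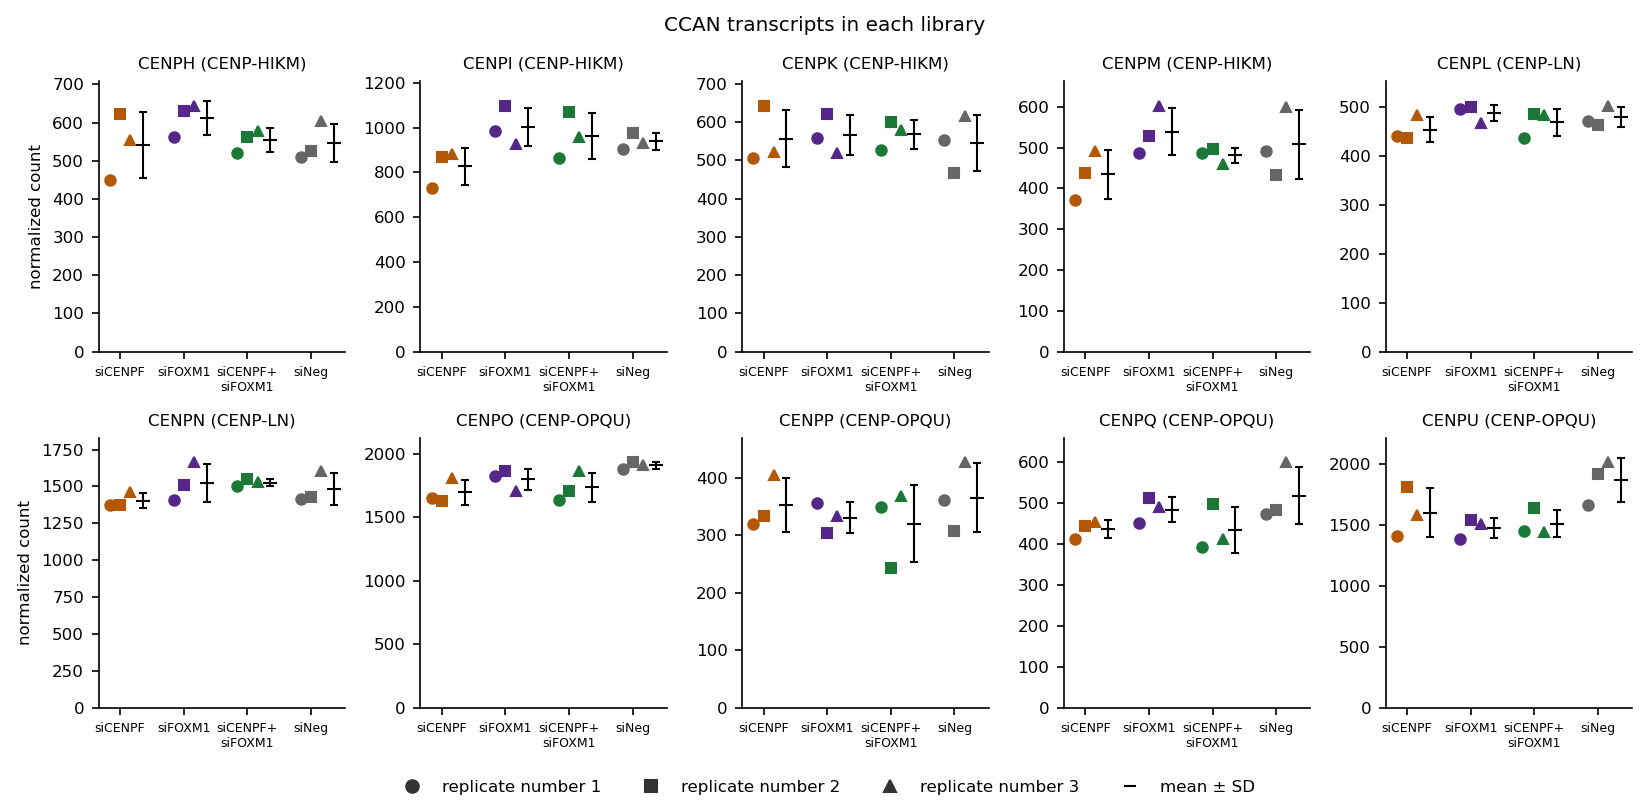
Normalized counts (vertical axes, from 0) of the 10 CCAN genes in siCENPF, siFOXM1, siCENPF+siFOXM1 and siNeg libraries; each symbol is a library, its shape is the replicate number, and the black marks are mean ± SD of 3 libraries. CENPU libraries lie between 1387 and 1640 with siFOXM1 or both siRNAs, under all siNeg libraries (1666 to 2015), while the groups overlap for most other genes.

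In siNeg cells the 10 genes spanned more than an order of magnitude per length. On the deposited FPKM scale CENPU led with 15.9 ± 1.82 FPKM and CENPQ followed with 15.7 ± 2.17 FPKM (SD, n = 3 each), and their libraries overlapped. CENPN came next with 7.65 ± 0.598 FPKM. CENPO (5.64 ± 0.217 FPKM), CENPI (5.52 ± 0.354 FPKM), CENPH (5.43 ± 0.537 FPKM) and CENPM (4.51 ± 0.722 FPKM) overlapped from neighbour to neighbour. CENPL (1.97 ± 0.0877 FPKM) and CENPK (1.84 FPKM) overlapped as well, and CENPP was lowest at 1.28 FPKM. The length behind these FPKM values exceeds the annotated exons for most members (6208 against 2953 bases for CENPU, and 1733 bases in both for CENPQ). Divided by the annotated exon length instead, CPM per kb put CENPU first at 33.3 ± 3.82. By mean, CENPN (21.9 ± 1.71), CENPO (18.2 ± 0.70) and CENPQ (15.7 ± 2.17) followed (SD, n = 3 each), and CENPP was still last at 1.96. On this scale the libraries of CENPQ overlapped those of CENPO and those of CENPM. The place of CENPQ beside CENPU thus held on the FPKM scale and not on CPM per kb of exon.

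**Figure D2:**
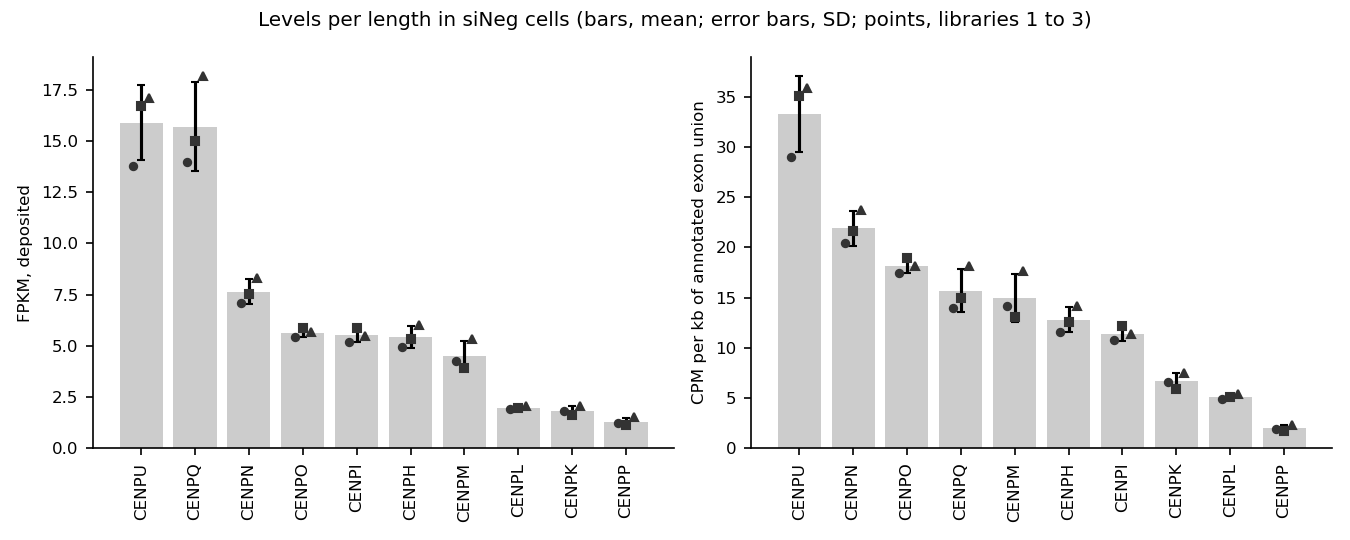
Levels of the 10 CCAN genes in siNeg cells, as deposited FPKM (left) and as CPM per kb of annotated exon (right), each ordered from high to low; bars are means of 3 libraries, error bars SD and points the libraries. CENPU is highest (15.9 FPKM, 33.3 CPM per kb) and CENPP lowest (1.28 FPKM, 1.96 CPM per kb) on both scales, while CENPQ moves between them.

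CENP-LN links the nucleosome to the rest of the network. CENPN (ENSG00000166451, chromosome 16, 81006498 to 81033114, plus strand, hg38) encodes the subunit that recognises the CENP-A nucleosome. Its libraries had 1375, 1376 and 1464 normalized counts with siCENPF, 1408, 1507 and 1664 with siFOXM1, 1501, 1553 and 1528 with both siRNAs, and 1415, 1429 and 1608 with siNeg. Each treated group overlapped siNeg, and the siCENPF+siFOXM1 libraries lay above all siCENPF libraries, as they did for 3.7% of all genes. The differences from siNeg were -0.08 with siCENPF, 0.04 with siFOXM1 and 0.04 with both siRNAs (limma SE 0.08 each), and no call came with or without the block. CENPL (ENSG00000120334, chromosome 1, 173799550 to 173824720, minus strand), the partner of CENP-N, had 441, 435 and 482 normalized counts with siCENPF, 496, 498 and 467 with siFOXM1, 437, 484 and 483 with both siRNAs, and 471, 463 and 501 with siNeg. Its libraries stayed within 435 and 501 in all 4 groups (CV 3.56% to 5.76%), and each treated group overlapped siNeg. The fitted differences from siNeg were -0.08 with siCENPF, 0.03 with siFOXM1 and -0.03 with both siRNAs, and their 95% intervals lay within -0.27 to 0.22.

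CENP-HIKM binds CENP-C and joins it to the CENP-T branch of the network. Its 4 transcripts differed from siNeg by 0.06 to 0.16 with siFOXM1 and by -0.07 to 0.07 with both siRNAs, and the lowest of them with siCENPF were CENPI and CENPM. CENPI (ENSG00000102384, chromosome X, 101098218 to 101163681, plus strand) encodes the large helical-repeat subunit. It had 732, 870 and 880 normalized counts with siCENPF, 985, 1096 and 927 with siFOXM1, 862, 1070 and 956 with both siRNAs, and 905, 977 and 932 with siNeg. All 3 siCENPF libraries lay under all siNeg libraries and under all siFOXM1 libraries, and 5.8% of all genes had siFOXM1 libraries wholly above siCENPF. Against siNeg the difference was -0.18 with siCENPF, 0.09 with siFOXM1 and 0.03 with both siRNAs. For siCENPF the 95% interval without the block was -0.41 to 0.04, and the limma adjusted p with the block was 0.156.

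CENPM (ENSG00000100162, chromosome 22, 41938721 to 41947164, minus strand) encodes a subunit with the fold of a small GTPase. It had 372, 438 and 492 normalized counts with siCENPF, 488, 528 and 602 with siFOXM1, 486, 496 and 461 with both siRNAs, and 492, 433 and 600 with siNeg. The siNeg libraries spread more widely (CV 16.7%) than those of any treated group, and every treated group overlapped siNeg. The differences from siNeg were -0.22 with siCENPF (95% interval -0.52 to 0.07), 0.09 with siFOXM1 and -0.07 with both siRNAs.

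CENPH and CENPK encode the coiled-coil pair of the complex. CENPH (ENSG00000153044, chromosome 5, 69189548 to 69210357, plus strand) had 449, 621 and 554 normalized counts with siCENPF, 562, 630 and 643 with siFOXM1, 520, 563 and 579 with both siRNAs, and 509, 526 and 603 with siNeg. Within each replicate number the siFOXM1 library was above the siNeg library, by 0.14, 0.26 and 0.09, and the groups still overlapped (difference 0.16, 95% interval -0.10 to 0.43, limma adjusted p = 0.853 without and 0.265 with the block). CENPK (ENSG00000123219, chromosome 5, 65517766 to 65563171, minus strand) had 508, 642 and 521 normalized counts with siCENPF, 559, 622 and 519 with siFOXM1, 527, 601 and 579 with both siRNAs, and 553, 468 and 616 with siNeg. Its order turned with the number: siNeg 2 was the lowest of the number 2 libraries and siNeg 3 the highest of the number 3 libraries, so the difference from siNeg was 0.45 within number 2 and -0.24 within number 3 for siCENPF.

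CENP-OPQU, the outermost of these complexes, strengthens the hold on microtubules and brings PLK1 to the kinetochore. Its 4 genes among the 10 members had fitted differences below 0 in each of the 3 comparisons with siNeg, with a median of -0.20 for siCENPF, -0.11 for siFOXM1 and -0.23 for siCENPF+siFOXM1. The same medians were -0.10, 0.09 and 0.03 for CENP-HIKM, and -0.08, 0.03 and 0.01 for CENP-LN, against 0 for all genes tested. ITGB3BP, which encodes CENP-R and is described below with the other CCAN genes, was not among the 4. It differed from siNeg by 0.10 with siCENPF and by 0.03 with siFOXM1. Its mean was 573 normalized counts with both siRNAs, against 581 with siNeg. The 3 comparisons share the siNeg libraries, so a high siNeg value enters each of them.

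CENPU (ENSG00000151725, chromosome 4, 184694618 to 184734133, minus strand) had 1411, 1813 and 1581 normalized counts with siCENPF, 1387, 1538 and 1511 with siFOXM1, 1455, 1640 and 1442 with both siRNAs, and 1666, 1922 and 2015 with siNeg. The siFOXM1 and siCENPF+siFOXM1 libraries all lay under the lowest siNeg library, whereas siCENPF 2 lay above siNeg 1. With siFOXM1 the difference from siNeg was -0.33 (limma SE 0.10, adjusted p = 0.285; with the block SE 0.06, adjusted p = 0.00074). With both siRNAs it was -0.30 (limma adjusted p = 0.446; with the block 0.00236), and with siCENPF -0.22 (limma adjusted p = 0.906; with the block 0.0353). Within replicate numbers 1, 2 and 3 the siFOXM1 library differed from the siNeg library by -0.26, -0.32 and -0.42, the siCENPF+siFOXM1 library by -0.19, -0.23 and -0.48, and the siCENPF library by -0.24, -0.08 and -0.35. All 9 of these differences were below 0.

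The calls of CENPU with the block were not equally firm. With siFOXM1 and with siCENPF+siFOXM1 it was called with each of the 6 single libraries left out. With siCENPF it was called in 2 of 6, and the call was lost without siCENPF 1 (-0.19), siCENPF 3 (-0.21), siNeg 1 (-0.25) or siNeg 3 (-0.16), without all libraries of number 1 or of number 3, and when only the groups compared were fitted. Among the alternatives run with the block, the call with both siRNAs was lost only when all 4 libraries of number 3 were left out (-0.21). Tests on the recovered reads gave the same calls of CENPU with the block in the 3 comparisons, both with edgeR (adjusted p = 0.0245 for siCENPF, 0.000548 for siFOXM1 and 0.00166 for both siRNAs) and with DESeq2 (adjusted p = 0.0293, 0.000116 and 0.000731 in that order). The authors' deposited table lists CENPU at -0.339 with siFOXM1 (adjusted p = 0.64) and calls none of the 10 genes in any of its 3 comparisons.

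CENPQ (ENSG00000031691, chromosome 6, 49463378 to 49493107, plus strand) encodes a subunit that binds microtubules in vitro. It had 411, 443 and 453 normalized counts with siCENPF, 450, 512 and 489 with siFOXM1, 392, 497 and 413 with both siRNAs, and 473, 482 and 599 with siNeg. All siCENPF libraries lay under all siNeg libraries, and the other treated groups overlapped siNeg. The differences were -0.24 with siCENPF (limma adjusted p with the block = 0.161), -0.09 with siFOXM1 (0.629) and -0.25 with both siRNAs (0.0999). The deepest library, siNeg 3, was the highest of the 12, and without number 2 the difference with both siRNAs was -0.40 and passed limma with the block.

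CENPO and CENPP encode the paired RWD-domain subunits of the complex. CENPO (ENSG00000138092, chromosome 2, 24793136 to 24822376, plus strand) had 1650, 1628 and 1810 normalized counts with siCENPF, 1827, 1861 and 1705 with siFOXM1, 1633, 1707 and 1859 with both siRNAs, and 1880, 1931 and 1910 with siNeg. In each treated group the 3 libraries lay under all 3 siNeg libraries. They did so for 4.44% of all genes with siCENPF, 6.83% with siFOXM1 and 6.58% with both siRNAs. The 3 comparisons share the siNeg libraries, and the share of genes for which this held in all of them at once is not given here. The CV of the siNeg libraries was 1.33%, the smallest among the 10 genes and 4 groups. The differences were -0.17 with siCENPF (limma adjusted p with the block = 0.113), -0.09 with siFOXM1 (0.438) and -0.14 with both siRNAs (0.168), and none was called. CENPP (ENSG00000188312, chromosome 9, 92325484 to 92620533, plus strand) had 320, 333 and 406 normalized counts with siCENPF, 356, 304 and 333 with siFOXM1, 350, 244 and 368 with both siRNAs, and 361, 308 and 427 with siNeg. It varied most among libraries (CV 20.9% with both siRNAs), every group overlapped siNeg, and its intervals were the widest, reaching -0.56 to 0.16 with both siRNAs.

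**Figure D3:**
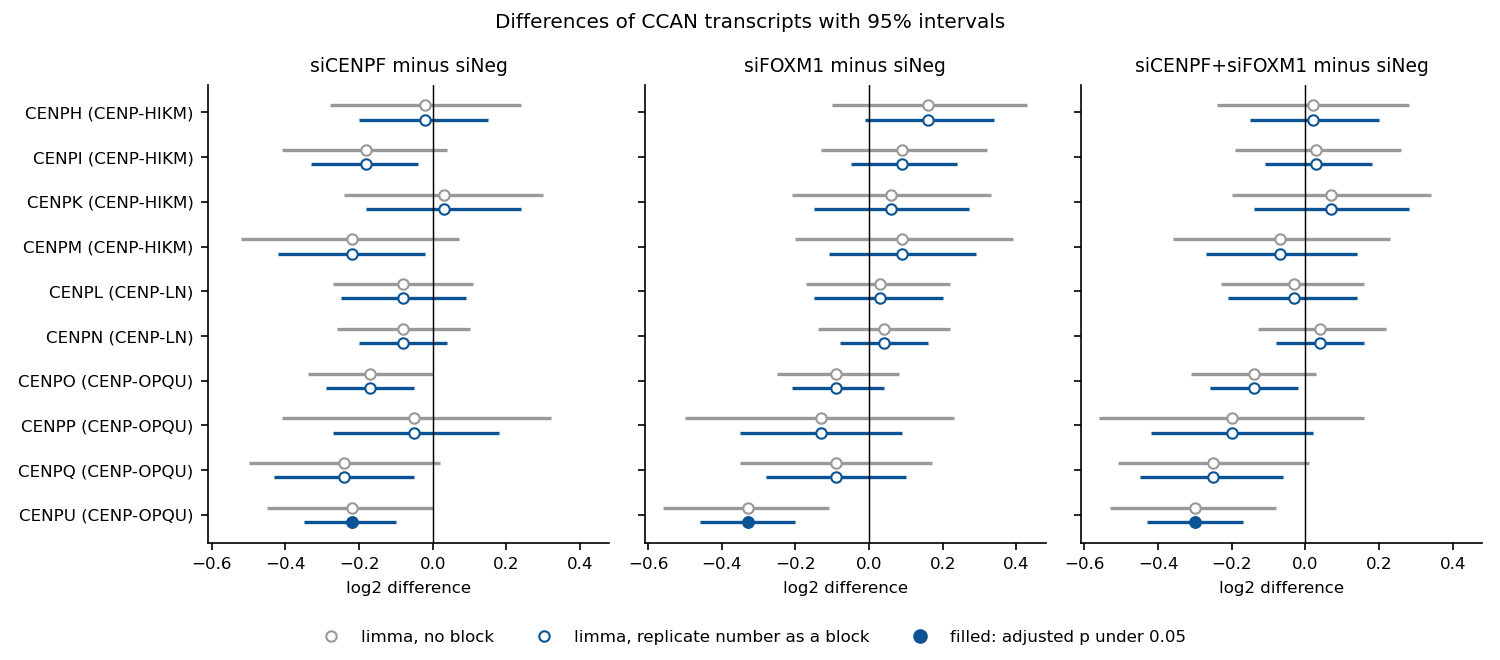
Log2 differences from siNeg (horizontal axes) of the 10 CCAN genes for siCENPF, siFOXM1 and siCENPF+siFOXM1, with 95% intervals from limma without the replicate block (grey) and with it (blue); filled points passed the adjusted threshold of 0.05. CENPU alone has filled points (-0.22, -0.33 and -0.30), and the wider grey intervals hold no call. The 4 CENP-OPQU genes at the bottom lie left of 0 in each panel, as 9 of the 10 genes do for siCENPF.

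Signs of the differences within replicate numbers were counted as well. With siCENPF, 6 of 10 members (CENPI, CENPL, CENPN, CENPO, CENPQ and CENPU) were under siNeg in all 3 numbers, where 17.6% of all genes were. With siFOXM1, 3 members (CENPO, CENPP and CENPU) were under siNeg in all 3 numbers, where 22% of all genes were, and CENPH was above in all 3, where 21.6% of all genes were. With both siRNAs, the same 3 members, CENPO, CENPP and CENPU, were under siNeg in all 3 numbers, where 21.3% of all genes were. The fitted differences were below 0 for 9 of 10 members with siCENPF (median -0.13), 4 of 10 with siFOXM1 (median 0.03) and 6 of 10 with both siRNAs (median -0.05), beside 7456, 7456 and 7529 of 14857 genes and a median of 0 in each.

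**Figure D4:**
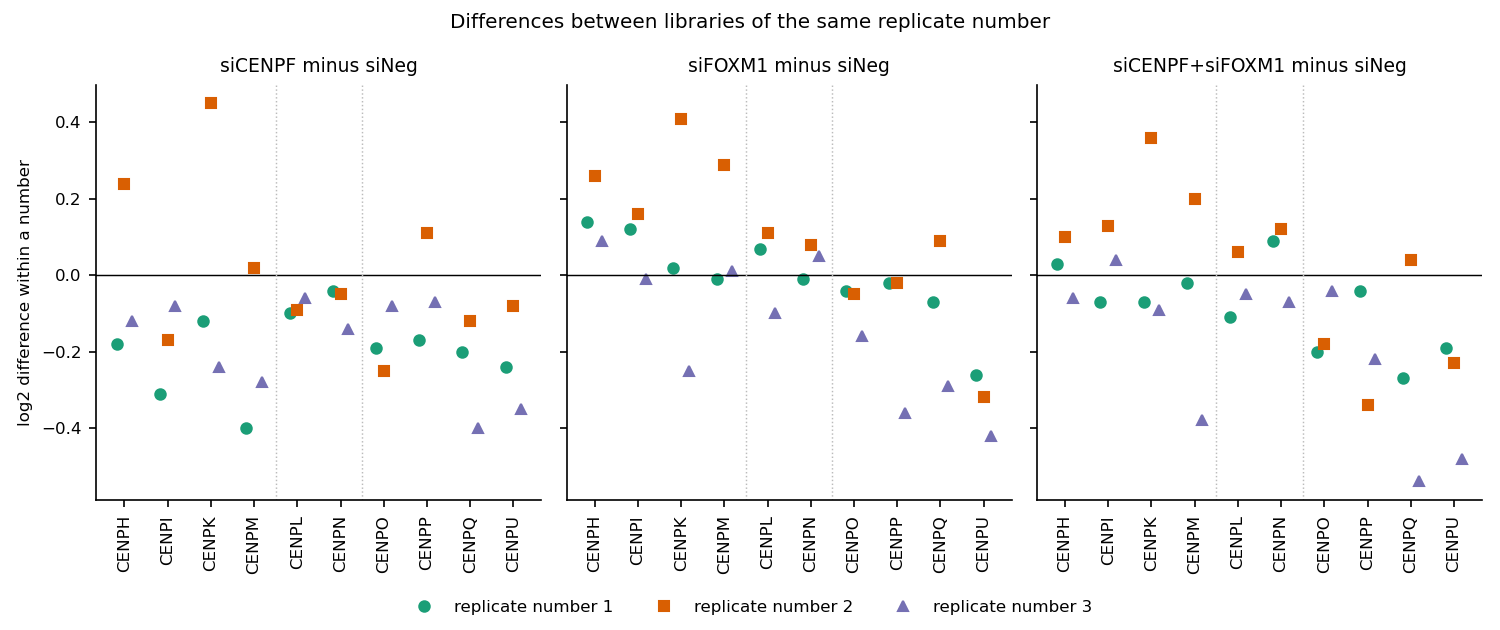
Log2 difference between the treated library and the siNeg library of the same replicate number (vertical axis) for the 10 CCAN genes, with the treated group named above each panel; symbols give the number and dotted lines part CENP-HIKM, CENP-LN and CENP-OPQU. CENPU lies below 0 for all numbers in all panels, whereas CENPK stands at 0.45, 0.41 and 0.36 for number 2 and below 0 for number 3.

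Set directly against each other, in a comparison added after the data had been seen, the single siRNAs gave calls at 2 CENP-HIKM genes with the block. CENPI was 0.28 higher with siFOXM1 than with siCENPF (limma SE 0.10, adjusted p = 0.552; with the block SE 0.07, adjusted p = 0.0148). CENPM was 0.32 higher with siFOXM1 than with siCENPF (limma adjusted p = 0.683; with the block 0.0478). Within numbers 1, 2 and 3 the siFOXM1 library exceeded the siCENPF library by 0.43, 0.33 and 0.07 for CENPI and by 0.39, 0.27 and 0.29 for CENPM. Without the block 0 of 10 members passed limma, where 0.458% of all genes passed. An unadjusted p under 0.05 was reached by 2 of 10 members in that fit, and by 1020 of 14857 genes. With the block 2 of 10 passed, both higher with siFOXM1, where 3.35% of all genes passed higher and 7.57% in either direction. The call of CENPI was lost without siFOXM1 1 (0.23), siFOXM1 2 (0.26), siCENPF 1 (0.23) or siCENPF 2 (0.26), and without all libraries of number 1 (0.20) or of number 2 (0.25). That of CENPM was lost without siFOXM1 1 (0.35), siFOXM1 2 (0.30), siFOXM1 3 (0.30), siCENPF 1 (0.24) or siCENPF 3 (0.35), without all libraries of number 1 (0.28), 2 (0.34) or 3 (0.33), and under DESeq2 (adjusted p = 0.0585). CENPU differed by -0.11 between the single siRNAs (95% interval -0.34 to 0.12, with the block -0.24 to 0.02), so its fall with siFOXM1 was not shown to be larger than with siCENPF.

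Both siRNAs together gave no call of a member against either siRNA alone. Against siCENPF alone, siCENPF+siFOXM1 differed by -0.15 to 0.22 over the 10 members. Without the block 0 of 10 passed limma, where 0.0808% of all genes passed, and with it 0 of 10, where 1.46% passed. An unadjusted p under 0.05 was reached by 0 of 10 members without the block (439 of 14857 genes) and by 2 of 10 with it (1759 of 14857 genes). Against siFOXM1 alone, the differences ran from -0.16 to 0.03. Without the block 0 of 10 passed, where 0.00673% of all genes passed, and with it 0 of 10, where 0.296% passed. The unadjusted count was 0 of 10 members in both fits, where it was 293 of 14857 genes without the block and 1138 with it. For CENPU, adding siFOXM1 to siCENPF gave -0.08 and adding siCENPF to siFOXM1 gave 0.03. The interaction, which asks whether both siRNAs together differ from the sum of the single differences, was largest for CENPU at 0.26 (95% interval -0.06 to 0.58 without the block, 0.07 to 0.44 with it, limma adjusted p = 0.304 with the block). No member passed for the interaction, without the block (0 unadjusted) or with it (1 unadjusted). Of 14857 genes, 0 passed without the block (353 unadjusted, and 24 by DESeq2) and 0.841% with it (1266 genes unadjusted). In these 3 comparisons edgeR and DESeq2 also called 0 of the 10 members, with and without the block.

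The other 6 CCAN genes gave 0 calls of 6 in the 3 comparisons with siNeg, with and without the block. They are CENPC and CENPT, whose products carry the links to the outer kinetochore, the histone-fold partners CENPW, CENPS and CENPX (the files list the last pair as APITD1 and STRA13), and ITGB3BP, which encodes CENP-R. Their median difference was -0.06 with siCENPF, 0.04 with siFOXM1 and -0.03 with both siRNAs. CENPC had 248, 334 and 282 normalized counts with siCENPF, 258, 391 and 301 with siFOXM1, 275, 358 and 325 with both siRNAs, and 205, 317 and 308 with siNeg. It stood above siNeg by 0.08, 0.20 and 0.23 in the 3 comparisons, within the spread of its libraries (limma adjusted p with the block = 0.787, 0.27 and 0.203). CENPX differed from siNeg by -0.17 with both siRNAs (limma adjusted p with the block = 0.146). Of 10 genes of CENP-A and its loading, 1 was called below siNeg with the block in each of the 3 comparisons and none without it. It was HJURP, the chaperone of CENP-A, with siCENPF (-0.19, limma adjusted p with the block = 0.0485), and CENPA itself with siFOXM1 (-0.56, 0.000224) and with both siRNAs (-0.46, 0.00222).

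Genes of the cell cycle were read in the same libraries. Of 40 S phase genes, 40 had differences below 0 with siCENPF (median -0.22), with siFOXM1 (-0.21) and with both siRNAs (-0.29), and with the block 16, 20 and 27 of them were called below siNeg and none above, while limma without the block called none. GINS1 led them with siCENPF (-0.51, limma adjusted p with the block = 0.000525), MCM6 with siFOXM1 (-0.39, 2.05e-05) and RRM2 with both siRNAs (-0.44, 1.91e-06). Their summed level was 343 to 434 FPKM with siCENPF, 367 to 429 FPKM with siFOXM1 and 353 to 402 FPKM with both siRNAs, against 409 to 523 FPKM with siNeg. Of 46 G2/M genes, 44 were below 0 with siCENPF (median -0.11), 21 with siFOXM1 (median 0.05) and 27 with both siRNAs (median -0.04). Without the block limma called 0 of them with siCENPF, 5 with siFOXM1 and 4 with both siRNAs, all below siNeg. With the block it called 3 below siNeg and 0 above with siCENPF, 12 below and 3 above with siFOXM1, and 11 below and 2 above with both siRNAs. With siFOXM1 the cyclin genes CCNA2 and CCNB1 had the smallest p of that list, at -0.63 and -0.67 (limma adjusted p with the block = 3.47e-09 and 6.31e-09). The summed G2/M level was 769 to 971 FPKM with siCENPF, 828 to 1040 FPKM with siFOXM1 and 817 to 1020 FPKM with both siRNAs, against 810 to 1020 FPKM with siNeg. The 13 mitochondrially encoded mRNAs, read as a sign of RNA quality, had medians of 0.11, 0.13 and 0.07. All 13 had differences above 0 with siCENPF and with siFOXM1, and 11 of 13 with both siRNAs. With the block 2 (MT-ATP8 and MT-ND6), 3 and 0 of them were called above siNeg. The part of any of these in the CCAN differences was not tested.

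The members' libraries also differed by replicate number. Centred on all groups, the median member stood at -0.08 in number 1, 0.03 in number 2 and 0.05 in number 3, while the median of all genes was 0 in each. CENPH was lowest in number 1 (-0.14), CENPP was lowest in number 2 (-0.20) and highest in number 3 (0.17). Within numbers, the mean of the 10 members deviated by -0.12, -0.03 and -0.05 in siCENPF libraries 1 to 3, by 0.07, 0.07 and -0.01 in siFOXM1, by -0.01, -0.01 and -0.06 in siCENPF+siFOXM1, and by 0.07, -0.03 and 0.13 in siNeg. The highest and the lowest of these belonged to siNeg 3 and siCENPF 1. Across the 12 libraries so centred, single members followed the mean of the other 9 to different degrees, from Pearson r = 0.734 for CENPQ and 0.731 for CENPM down to 0.254 for CENPU and 0.204 for CENPP. The members share libraries, so these values are a description with no test.

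By the same measure, 5 of 11098 other genes followed the mean of the members most closely over the 12 libraries. They were UBE2T (r = 0.944), which encodes a ubiquitin-conjugating enzyme of the Fanconi anaemia pathway, NOP14-AS1 (0.906), MELK (0.902), which encodes a kinase expressed in dividing cells, GINS1 (0.893), a subunit of the replicative helicase, and PRIMPOL (0.886), a primase-polymerase. GINS1 had the widest swing, at -0.26 in siCENPF, 0.06 in siFOXM1 and -0.05 in siCENPF+siFOXM1, against 0.24 in siNeg, on the centred log2 scale. PRIMPOL shares 346 exon bases with CENPU on the opposite strand.

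Several members share exons with a neighbour on the other strand. The sources used here do not say whether reads were counted by strand, so reads there may belong to either gene. The bases shared with the neighbour that overlaps most make up 38.0% of the exon bases of CENPP (with IPPK), 27.0% of CENPO (with ADCY3), 12.8% of CENPN (with CMC2) and 11.7% of CENPU (with PRIMPOL). CENPH, CENPI, CENPK, CENPM and CENPQ shared none. PRIMPOL averaged 392 normalized counts and ADCY3 1775 over the 12 libraries.

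Promoters from RefSeq (GRCh38.p14; 250 bases before to 50 after each annotated start) were found for 7 members, CENPI, CENPK, CENPN, CENPO, CENPP, CENPQ and CENPU, in 9 windows, of which CENPP has 3. They were searched on both strands for the CHR forms TTTGAA and TTTAAA, the NF-Y box CCAAT, the E2F forms TTTGGCGC, TTTCCCGC and TTTCGCGC, and the forkhead core TGTTTA. The stretches below show the CHR matches, the class of site through which MuvB and FOXM1 act, then the matches of CENPU, the member called with the block, and the forkhead match of CENPQ, in each case read 5′ to 3′ on the gene's strand with the match in capitals.
CENPO (chr2:24793449-24793474, plus strand, CHR): ggttggtttggtTTTGAAgacgtgga
CENPN (chr16:81007205-81007234, plus strand, CHR): gcaattggtggcTTTGAAggcgcggcgagc
CENPU (chr4:184734114-184734142, minus strand, NF-Y box on the other strand): tgctcggcccggATTGGctgttcggagcg
CENPU (chr4:184734288-184734319, minus strand, E2F on the other strand): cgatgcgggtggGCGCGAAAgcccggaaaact
CENPQ (chr6:49463374-49463403, plus strand, forkhead): ccgggtctcctcTGTTTAcgaatgtttggg

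TTTGAA was thus present for 2 members, CENPO and CENPN, and in 15.2% of 35116 promoter windows, and TTTAAA for none (12.2% of windows). CCAAT was found for 5 members, CENPU, CENPK, CENPQ, CENPP and CENPN (34.6% of windows). TTTCGCGC was found for CENPU alone (0.515% of windows), and TTTGGCGC and TTTCCCGC for none (0.652% and 1.63%). TGTTTA was found for CENPQ and CENPP (12.3% of windows). Both matches of CENPP, CCAAT and TGTTTA, lie in the window at chr9:92600007-92600306, inside the gene, whose annotated start is 92325484, and neither of its other 2 windows held a match. The windows of CENPN (chr16:81006964-81007263), CENPO (chr2:24793175-24793474) and CENPI (chrX:101100808-101101107) also lie wholly inside the gene spans given above. So does the CENPP window at chr9:92325703-92326002. CENPU, which was called below siNeg with siFOXM1 only with the block, held neither CHR form nor the forkhead core in its window. CENPO and CENPN, which held TTTGAA, differed from siNeg with siFOXM1 by -0.09 and 0.04. A match is a run of letters and not a measured binding site, and the lack of one says only that those letters are not in the window.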

How the data were processed

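PolyA RNA of 12 hTERT-RPE1 libraries (4 siRNA groups of 3) was analysed from the authors' files. The submitters' processing notes name hg38, bcl2fastq, Trimmomatic, TopHat and edgeR, without versions, strand setting or gene annotation. The authors deposited normalized counts per gene, a signal on a count scale with nearly equal column sums, whose normalization method the sources do not name. The authors also deposited FPKM and, per the file headers, 3 edgeR tables that hold, beside the CPM of each library, the log2 fold change, its p-value and the score of the likelihood ratio test. Whole reads were recovered from the deposited CPM: 100% of values came out whole within 0.01 reads, for 14150 genes in all 12 libraries, and edgeR on these reads called 48, 103 and 68 genes for siCENPF, siFOXM1 and siCENPF+siFOXM1 against siNeg.

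Limma 3.58.1 (R 4.3.3, trend and robust moderation, two-sided) was fitted to log2(normalized count + 1) with 4 group means, for the 14857 genes that reached 10 normalized counts in 3 or more libraries. All 10 members passed that filter. Fold changes are on this scale, which understates changes of low values. Replicate numbers were checked for pairing: deviations from the group means correlated at 0.272 to 0.639 in 18 pairs of libraries with the same number and at -0.51 to 0.0248 in 36 pairs with different numbers, so the numbers were taken to pair the libraries, although the labels do not say what a number marks. Values with the replicate number as a block are given where they change a call. Alternatives were edgeR 4.0.16 and DESeq2 1.42.0 on the recovered reads, FPKM, pseudocounts of 0.5 and 10, no filter, only the groups compared, median-of-ratios scaling and each library or number left out. The method was tested on simulated data.

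The members and lists were chosen with earlier results of these data known. Named were the 10 members, both targets, the 6 other CCAN genes, at most 2 genes per list and comparison, cell type markers and the 5 genes most like the members' mean (Pearson r within replicate numbers, at least 100 normalized counts). Positions are hg38; exon lengths and overlaps come from GENCODE, promoter sequences from RefSeq (GRCh38.p14).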

Additional observations from a re-analysis of the deposited data

How the results depend on the processing

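Limits: there were 3 libraries a group, with depths of 13671250 to 35411230 reads. Without the block, the 95% intervals against siNeg for single members reached from -0.56 to 0.43 on the log2 scale. With the block they reached from -0.46 to 0.34. No member's log2 difference that was called changed sign under any alternative run, and of the results for single members without the block 1356 kept their direction and side of the threshold or moved by less than the spread, 19 moved and 5 became calls, all 5 through the replicate block. With the block, 800 held, 64 moved, 3 became calls and 23 lost theirs. The cause of the shifts below was not tested.

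With the replicate block, called members numbered 1 for siCENPF, 1 for siFOXM1 and 1 for siCENPF+siFOXM1 against siNeg, and 2 for siFOXM1 against siCENPF, and called genes numbered 671, 1295, 1174 and 1125 in that order, 217 for both siRNAs against siCENPF, 44 against siFOXM1 and 125 for the interaction. In the fit with only the groups compared, 6 genes were called for siCENPF, 41 for siFOXM1 and 35 for both siRNAs against siNeg, 3 for both siRNAs against siCENPF and 12 for siFOXM1 against siCENPF; with the block in that fit, 293 genes and 0 members for siCENPF against siNeg and 187 genes for both siRNAs against siFOXM1. DESeq2 called 136, 254 and 169 genes for siCENPF, siFOXM1 and both siRNAs against siNeg, 33 and 4 for both siRNAs against siCENPF and against siFOXM1, 158 for siFOXM1 against siCENPF and 24 for the interaction; with the block it called 1 member, CENPI, for siFOXM1 against siCENPF. FPKM gave 45 genes for both siRNAs against siNeg, 4 for both siRNAs against siCENPF and 30 for siFOXM1 against siCENPF.

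With single libraries or numbers left out and no block, 1 to 29 genes were called for siCENPF, 2 to 111 for siFOXM1 and 3 to 86 for both siRNAs against siNeg, 0 to 14 for both siRNAs against siCENPF, 3 to 57 for siFOXM1 against siCENPF and 0 to 3 for the interaction. With the block these ranges were 290 to 626, 513 to 1343, 469 to 1104, 63 to 244, 480 to 939 and 30 to 148, and 5 to 26 for both siRNAs against siFOXM1. Called members with the block numbered 0 to 1 for siCENPF, 1 for siFOXM1 and 0 to 2 for both siRNAs against siNeg, and 0 to 1 for siFOXM1 against siCENPF; the second member with both siRNAs was CENPQ, called without siCENPF+siFOXM1 2 (-0.35), without siNeg 2 (-0.35) or without number 2 (-0.40).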
